A study of Homo sapiens with 4 samples.

Results

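The ELF5 peaks described here lie in 2 windows over the replication-dependent histone gene clusters on the short arm of human chromosome 6, at 6p22. The windows also hold other genes, so a peak of a cluster is not necessarily at a histone gene. They were chosen by position alone, as peaks whose summit (the base of highest signal) falls on hg19 in chr6 from 25990 to 26300 kb, the first cluster, or from 27050 to 27900 kb, the second cluster. The authors' list held 138 such peaks among 115384, with 54 in the first cluster and 84 in the second. The stretch between the clusters, from 26300 to 27050 kb, held 40 peaks and served for comparison. ELF5 was immunoprecipitated in 3 replicates from T47D, an established line of luminal A human breast epithelium grown in RPMI with serum and insulin and given no treatment, and 1 input sample of the same line was sequenced. Separate cultures for the replicates are not stated in the labels. A single peak list was used, without values of single replicates, and whether it rests on all 3 replicates or on 2 of them is not clear from its header, so neither their spread nor a test between regions could be had.

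ELF5 is an ETS-family transcription factor of luminal progenitor and alveolar cells of the mammary gland, and like other ETS factors it recognises sites built around a GGAA core. Replication-dependent histone genes encode the H1, H2A, H2B, H3 and H4 proteins that package newly made DNA. They have no introns, end in a stem-loop in place of a poly(A) tail, and are switched on together in S phase through NPAT, a coactivator held in nuclear bodies at the clusters. No arrest or synchronisation of the cells is given in the labels.

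The genes of the region are known here by name and order only, from the RefSeq table of GRCh38.p14, because no annotation of hg19 was used. That table lists 32 protein-coding histone genes from H1-1 to H4C8, with only HFE, an iron regulator, among them. Their classes are 5 H1, 4 H2A, 8 H2B, 7 H3 and 8 H4 genes. Next come 9 other protein-coding genes with no histone gene: BTN3A2, BTN2A2, BTN3A1, BTN3A3, BTN2A1 and BTN1A1 of the butyrophilin family, HMGN4, ABT1 and ZNF322. BTN1A1 encodes butyrophilin, a protein of the milk fat globule. The table continues with 21 histone genes from H2BC11 to H2BC17, which fall into a block of 5 and a block of 16. Between these blocks lie 51 tRNA genes and 5 other protein-coding genes, among them PRSS16, a thymic serine protease, and the zinc finger genes ZNF391 and ZNF184. A further 47 tRNA genes lie in the order between H4C8 and H2BC11, and none from H1-1 to H4C8. Which peak lies at which of these genes was not analysed here, since no hg19 annotation was used and no positions were converted between builds.

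The promoters of the histone genes are shown because the list places ELF5 peaks in these clusters and ETS factors bind known letters. RefSeq promoter windows of 300 bases (250 before the start to 50 after it, GRCh38.p14) were at hand for 50 of 55 histone genes of chromosome 6, as 54 windows, with H2AC1 and H2BC1, which lie apart from the rest, included. Shown are the first gene of each class in the order from H1-1 that had a window, plus the window of H3C6, the one window with the full ETS motif CCGGAAGT. The windows are chr6:26017738-26018037 (minus strand) for H1-1, chr6:26033569-26033868 (minus) for H2AC4 and chr6:26043664-26043963 (minus) for H2BC3. They are chr6:26020201-26020500 (plus) for H3C1, chr6:26027234-26027533 (minus) for H4C2 and chr6:26224885-26225184 (plus) for H3C6, all on GRCh38.p14 and not to be set beside hg19 peak positions. Each is read 5′ to 3′ along its gene, and capitals mark CCGGAAGT, its core GGAAG, the octamer ATTTGCAT and the TATA sequence TATAAA on either strand.
H1-1: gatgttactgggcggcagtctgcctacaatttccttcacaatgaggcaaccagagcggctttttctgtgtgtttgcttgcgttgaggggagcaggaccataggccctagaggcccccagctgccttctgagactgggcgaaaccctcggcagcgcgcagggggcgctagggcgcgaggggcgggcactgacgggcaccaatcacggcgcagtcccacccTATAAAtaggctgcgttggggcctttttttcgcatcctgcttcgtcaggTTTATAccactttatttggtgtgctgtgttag
H2AC4: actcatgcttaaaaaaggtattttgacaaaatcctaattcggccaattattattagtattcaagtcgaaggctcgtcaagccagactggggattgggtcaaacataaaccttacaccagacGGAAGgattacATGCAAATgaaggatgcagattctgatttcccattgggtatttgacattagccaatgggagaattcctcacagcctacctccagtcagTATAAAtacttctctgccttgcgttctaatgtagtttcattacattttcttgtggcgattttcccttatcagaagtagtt
H2BC3: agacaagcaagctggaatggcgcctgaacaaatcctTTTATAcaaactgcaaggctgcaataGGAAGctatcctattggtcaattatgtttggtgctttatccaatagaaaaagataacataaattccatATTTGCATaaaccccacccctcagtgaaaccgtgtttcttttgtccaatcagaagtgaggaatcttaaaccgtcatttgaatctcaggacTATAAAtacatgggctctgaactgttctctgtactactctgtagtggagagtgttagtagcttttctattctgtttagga
H3C1: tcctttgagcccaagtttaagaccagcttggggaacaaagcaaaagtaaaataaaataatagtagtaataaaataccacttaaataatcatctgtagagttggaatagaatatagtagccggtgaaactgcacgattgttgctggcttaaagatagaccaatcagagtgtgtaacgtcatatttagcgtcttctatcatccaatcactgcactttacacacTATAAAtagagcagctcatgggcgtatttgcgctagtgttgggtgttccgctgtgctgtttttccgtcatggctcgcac
H4C2: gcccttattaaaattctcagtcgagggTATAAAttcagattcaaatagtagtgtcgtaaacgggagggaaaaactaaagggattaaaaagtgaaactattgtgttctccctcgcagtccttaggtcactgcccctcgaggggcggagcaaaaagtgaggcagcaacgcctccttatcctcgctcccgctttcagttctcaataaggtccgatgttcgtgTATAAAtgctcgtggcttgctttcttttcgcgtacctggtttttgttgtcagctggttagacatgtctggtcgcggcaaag
H3C6: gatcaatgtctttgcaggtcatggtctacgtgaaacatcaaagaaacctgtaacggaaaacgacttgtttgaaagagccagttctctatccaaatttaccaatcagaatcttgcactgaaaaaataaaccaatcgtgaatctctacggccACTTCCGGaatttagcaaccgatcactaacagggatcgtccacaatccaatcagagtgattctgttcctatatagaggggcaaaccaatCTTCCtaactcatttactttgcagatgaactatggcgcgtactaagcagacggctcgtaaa

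Motifs were searched on both strands, and a match describes letters, not binding. The full motif CCGGAAGT was in 1 of 54 histone windows, 1.85% (exact binomial 95% interval 0.0469% to 9.89%), against 4.14% of all 35116 RefSeq promoter windows. The match, in H3C6, begins 100 bases before the start on the opposite strand. The shorter core GGAAG, which the full motif contains, was in 24 histone windows, 44.4% (30.9% to 58.6%), against 71.9% of all windows. With 1 more base, AGGAAG was in 11 histone windows, 20.4% (10.6% to 33.5%), against 33.6% of all. Histone windows had a median GC content of 42.3% and all windows 58.7%, and the part of base composition in these counts was not tested.

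By class, the core GGAAG was in 8 of 11 H2A windows, 8 of 17 H2B, 4 of 10 H4, 2 of 10 H3 and 2 of 6 H1 windows, and no difference between classes was tested. Of the 6 sequences shown, H2AC4, H2BC3 and H3C6 hold it and H1-1, H3C1 and H4C2 do not. Classic histone promoter elements were common. TATAAA was in 36 windows, 66.7% against 11.5% of all, and in the sequences of H1-1, H2AC4, H2BC3, H3C1 and H4C2 a copy begins 29 to 31 bases before the start. The octamer ATTTGCAT, the site of the POU factors OCT1 and OCT2, was in 23 windows, 42.6% against 1.77% of all, of which 13 were H2B and 9 H2A windows. CCAAT was in 47 windows, 87.0% against 34.6%. Of the 54 windows 23 overlap another of them, of the same or of another gene, so some matches can be counted in more than 1 window. The 4 genes H2BC5, H2BC12, H3C4 and H3C6 have more than 1 window, and these windows can be among the 23. The binomial intervals of the motif shares treat windows as independent, which such windows are not.

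Peaks were denser in both histone clusters than in the stretch between them. The first cluster held 17.4 peaks per 100 kb (54 in 310 kb), the second 9.88 (84 in 850 kb) and the stretch between 5.33 (40 in 750 kb). The ratio to the stretch was 3.27 for the first cluster and 1.85 for the second. Exact 95% counting intervals of these ratios ran from 2.13 to 5.05 and from 1.26 to 2.77. They treat peaks as independent, and peaks that sit in runs are not, so these intervals are too narrow. Chromosome 6 as a whole held 2.60 peaks per 100 kb and chromosomes 1 to 22 and X together 3.799, with assembly gaps not taken out. The clusters and the stretch between were all above both values.

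Windows of the same length laid end to end over chromosomes 1 to 22 and X give the background of these counts. Windows in assembly gaps were kept, here and for the strong peaks below, and they lower the medians and the shares. At least 54 peaks were found in 4.24% of 9782 windows of 310 kb, where the median was 5. At least 84 were in 10.6% of 3561 windows of 850 kb, with a median of 14. In both comparisons the cluster was in the upper part of the range, and 415 windows of 310 kb and 377 of 850 kb were as rich. The 40 peaks of the stretch between were reached in 888 of 4041 windows of 750 kb, 21.97%.

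The edges given here are those of the chosen windows, since hg19 positions of the histone genes were not used. On its outer side the first cluster was bordered by few peaks. In the 310 kb before it only 6 peaks were listed, 1.94 per 100 kb, at folds from 3.16 to 4.57 over the local background, and none was strong as defined below. The last peak outside lay 26928 bp before the edge with a fold of 3.22, and the first inside 2325 bp after it with a fold of 11.4. At the inner edge the last peak inside lay 13248 bp before 26300 kb with a fold of 10.8, and the next 4107 bp after it with a fold of 4.60. For the second cluster, the peaks on either side of 27050 kb lay 3400 bp outside, at a fold of 4.45, and 9814 bp inside, at 3.43. At 27900 kb the last peak inside lay 29021 bp before the edge with a fold of 5.78, and the next one outside 147846 bp after it, also at 5.78. The 850 kb after the second cluster held 39 peaks, 4.59 per 100 kb, a density below that of both clusters.

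The fold of a peak, the authors' signal value, is read here as the ratio of ChIP fragments to the local background. In that ratio fragments are scaled by 0.910 and 1 is then added to both numbers. A fold is therefore lower than the fragments divided by the background. Peaks in the first cluster had higher folds than those of the list at large, and peaks in the second less so. The median fold was 7.04 in the first cluster (interquartile range 4.66 to 11.8 over peaks), 4.86 in the second (3.43 to 8.55) and 4.52 in the stretch between (3.46 to 10.3). Over the whole list it was 3.66 (2.98 to 5.499). Behind these folds lay a median pileup, the number of fragments stacked at the peak as recovered from fold and p, of 32 fragments in the first cluster, 21.5 in the second and 18.5 between them, against 16 in the list. The medians of the second cluster and of the stretch between differed little beside the interquartile ranges of both.

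**Figure D1:**
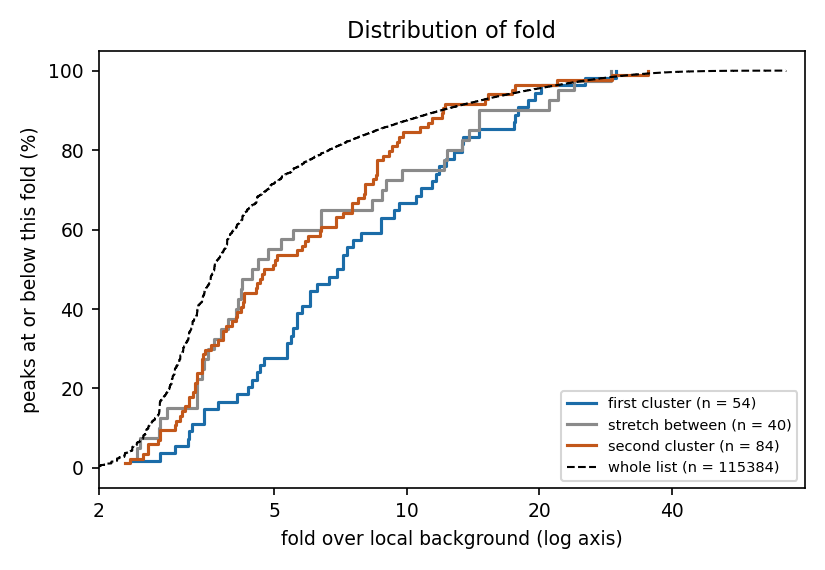
Share of peaks (%, vertical) at or below each fold over local background (horizontal, log axis) for the first cluster, the stretch between, the second cluster and the whole list. The first cluster lies farthest to the right up to a fold of about 10, with a median of 7.04, and the whole list farthest to the left, with a median of 3.66.

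Strong peaks, those in the highest 10% of folds of the list (11.99 or more), made up 10.0% of the list with ties. They numbered 13 of 54 in the first cluster, 24.1% (exact binomial 95% interval 13.5% to 37.6%), and 10 of 84 in the second, 11.9% (5.86% to 20.8%). In the stretch between they numbered 10 of 40, 25% (12.7% to 41.2%). The share in the second cluster was near that of the list, and the shares in the first cluster and in the stretch between were within each other's intervals. Strong peaks were denser in the first cluster all the same, at 4.19 strong peaks per 100 kb, against 1.33 between and 1.18 in the second cluster. Chromosome 6 held 0.351 per 100 kb, with a strong share of 13.5%. At least 13 strong peaks were found in 0.378% of windows of 310 kb. At least 10 were in 8.26% of windows of 850 kb, the length of the second cluster, and in 6.53% of windows of 750 kb, the length of the stretch between. Both regions held 10 strong peaks, so the difference between these shares only reflects the length of the windows. The lowest strong folds in the clusters were 11.99 and 12.1, and the highest below the line were 11.8 and 11.6, differences far inside the counting interval of such peaks.

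**Figure D2:**
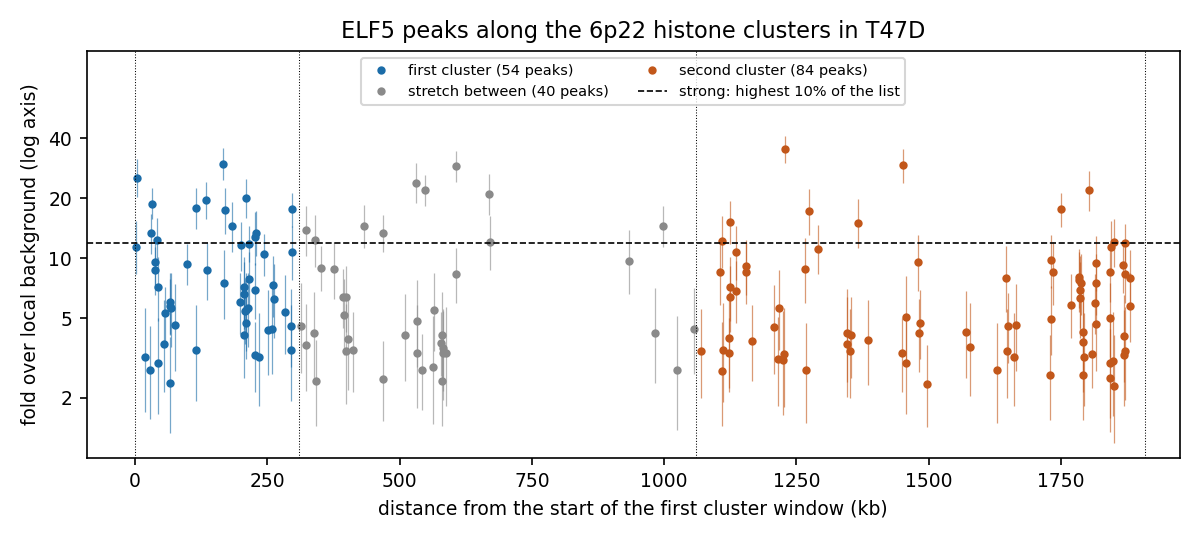
Fold of each peak over the local background (vertical, log axis) against the distance of its summit from the start of the first cluster window (kb), with exact Poisson 95% counting intervals as thin lines. Dotted lines are window edges and the dashed line is the fold of 11.99 above which a peak was called strong; 13 peaks of the first cluster, 10 of the stretch between and 10 of the second cluster reach it.

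The 8 peaks of highest fold in the first cluster ran from 17.5 to 29.9. The highest, chr6:26156402-26158147 on hg19, was 1746 bp wide and had 116 fragments over a background of 2.57, a fold of 29.9 (95% counting interval 24.7 to 35.8). Close beside it lay chr6:26158967-26159377, the eighth by fold, with 57 fragments over 2.03 and a fold of 17.5 (13.3 to 22.5). The second by fold, chr6:25992614-25993325, was the second peak of the window by position and had 82 fragments over 1.98 and a fold of 25.3 (20.2 to 31.4). The interval of the highest peak overlapped those of the second and, only at its lower end, the third. Overlap of intervals does not by itself settle an order, and no test between peaks was made.

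Further into the first cluster, chr6:26199081-26199555 had a fold of 20.2 (16.0 to 25.1) on 78 fragments, and chr6:26123147-26124904, 1758 bp wide, a fold of 19.6 (15.7 to 24.2) on 85. The deepest peak of the cluster was chr6:26021332-26022271, with 123 fragments. It stood over a background of 4.995 fragments, and its fold was 18.8 (15.7 to 22.4). By fold it ranked 5 in the cluster and by p 2. The remaining peaks named were chr6:26103965-26104659 at 17.9 (14.0 to 22.6) and chr6:26285372-26285995 at 17.6 (14.4 to 21.4). Each of the 8 had an interval that overlapped that of the next in rank.

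Among the 8 peaks named in the second cluster the highest fold was 35.3 and the lowest 12.2. The highest peak was chr6:27218596-27219943, 1348 bp wide, with 153 fragments over a background of 2.97 and a 95% counting interval of its fold from 30.0 to 41.3, rank 834 by fold in the list. It was the widest, the deepest and the smallest in p of its window. Its interval overlapped that of only 1 other of the 8 named, chr6:27440385-27441175, with 101 fragments over 2.17 and a fold of 29.3 (23.9 to 35.5). The third was chr6:27792230-27792843, with 75 fragments over 2.16 and a fold of 21.9 (17.3 to 27.4).

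Folds in the second cluster then fell off quickly. The peak at chr6:27740294-27740608, only 315 bp wide, had a fold of 17.6 (14.4 to 21.4) on 102 fragments over 4.32. Its pileup and background equal those of the peak at chr6:26285372-26285995 in the first cluster, which was 624 bp wide. The next were chr6:27263868-27264386 at 17.3 (13.2 to 22.4), chr6:27114802-27115316 at 15.3 (11.9 to 19.3) and chr6:27356356-27357089 at 15.1 (11.2 to 19.8). Last of the 8 was chr6:27099652-27099869, 218 bp wide, at 12.2 (8.998 to 16.3) on 45 fragments, close to the line for a strong peak.

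The stretch between held single peaks as strong as those of the clusters. Its highest, chr6:26596899-26597593, had 117 fragments over 2.70 and a fold of 29.0 (24.1 to 34.7), within the counting interval of the highest peak of the first cluster. It was followed by chr6:26520701-26521563 at 24.0 (18.9 to 29.9), chr6:26537506-26539105 at 22.04 (18.3 to 26.3) on 120 fragments, and chr6:26659485-26659777 at 21.0 (16.4 to 26.5). Next came chr6:26421844-26422170, at 14.6 (11.3 to 18.6). The counting intervals of the highest peaks of the 3 windows overlapped each other.

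Within each window the peaks were gathered in patches. In the 6 full bins of 50 kb of the first cluster there were 4 to 16 peaks, and 5 of these bins held a strong peak. The richest bin, 200 to 250 kb from the window's start, held 16 peaks, 3 of them strong. The bin from 50 to 100 kb held 8 peaks and no strong one, with a highest fold of 9.37. In the 17 bins of the second cluster counts ran from 0 to 12 with a median of 4. Its peaks were most numerous near both ends: 11 in the bin 1110 to 1160 kb from the start of the first window, and 12, 12 and 8 in the last 3 bins. The bins between these ends held 0 to 5 peaks, although the window's 2 highest peaks lay there. By gene order the part between the 2 histone blocks of this cluster holds tRNA and other genes and no histone gene. Whether the 2 highest peaks lie in that part was not analysed, since no hg19 annotation was used. In the 15 bins of the stretch between, 5 were empty and the median was 2.

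**Figure D3:**
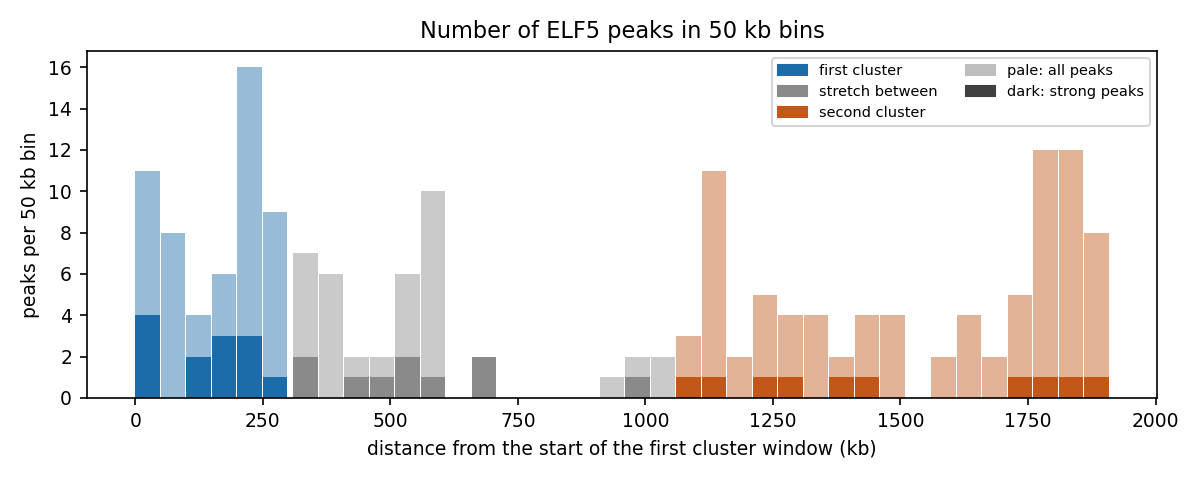
Number of peaks per 50 kb bin (pale bars, all peaks; dark bars, strong peaks) against the distance from the start of the first cluster window (kb). All 6 bins of the first cluster hold 4 or more peaks, the second cluster is fullest near both ends, and the stretch between has 5 empty bins; a last piece of 10 kb of the first cluster, which held no peak, is not drawn.

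Joining summits at most 12.5 kb apart gave 9 runs in the first cluster, 21 in the second and 17 in the stretch between. A denser window joins more summits by its density alone, and runs were not counted over the whole list. Runs of 5 or more peaks held 79.6% of the peaks of the first cluster, 63.1% of the second and 42.5% of the stretch between. The largest, in the first cluster, ran over 63.7 kb at chr6:26188569-26252231 with 22 peaks, 3 of them strong, and a second one over 56.5 kb at chr6:26008566-26065098 held 16, also 3 of them strong. In the second cluster the largest run was chr6:27774824-27806901, with 15 peaks over 32.1 kb and 1 strong peak. No run between the clusters held more than 6 peaks. Neighbouring summits lay a median of 1442 bp apart in the first cluster and 2461 bp in the second, against 8762 bp between them and 4187 bp over the list.

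Very close neighbours were common in all 3 windows. Distances of at most 1 kb made up 22 of 53 in the first cluster, 30 of 83 in the second and 12 of 39 between them, or 41.5%, 36.1% and 30.8%, against 22.8% over the list. The closest pair of the first cluster lay 355 bp apart, at chr6:26216125-26216308 and chr6:26216431-26216940, with folds of 3.26 and 6.93. In the second cluster the closest pair was 225 bp apart, at chr6:27335809-27335954 and chr6:27336025-27336249, with folds of 3.72 and 4.24. Such neighbours can be parts of 1 enriched stretch. In the stretch between, the closest pair, 381 bp apart, consisted of 2 strong peaks, with folds of 21.0 and 12.1.

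Weaker peaks lay near strong ones most often in the first cluster. There 22 of 41 other peaks, 53.7%, had a strong summit within 5 kb, against 18 of 74 in the second cluster, 24.3%, and 7 of 30 between, 23.3%. The first cluster also had the most strong peaks per length, which by itself shortens these distances. The same share over the whole list was not computed.

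Peaks of the first cluster were wide by their median. The median width was 406 bp there, 242.5 bp in the second cluster and 220 bp in the stretch between, against 215 bp over the list, and 8.52%, 3.01% and 1.63% of the 3 windows were covered by peaks, against 1.27% of chromosomes 1 to 22 and X. The widest, chr6:26233339-26235161 in the first cluster, was 1823 bp wide but only reached a fold of 10.5 (8.17 to 13.2) over a background of 5. Widths of 1000 bp or more were found for 4 of 54 peaks in the first cluster (7.41%) and 1 of 84 in the second (1.19%). In the stretch between it was 1 of 40 (2.5%), with 5.05% over the list. The smallest width, 135 bp, was that of 1 peak in the first cluster (1.85%), 5 in the second (5.95%) and 4 between (10.0%), against 9.27% over the list.

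Wider members had higher folds, as over the list. Spearman's rho was 0.698 over the 138 cluster peaks, 0.688 over the 40 between and 0.598 over the list, given as a description across peaks of 1 list. Strong peaks of the clusters had a median width of 589 bp and those of the stretch between 337.5 bp, against 818 bp for strong peaks of the list. Their median pileups were 73 and 69.5 fragments, against 92, so the lower values were not particular to the clusters. The other peaks had a median width of 251 bp in the clusters, 181.5 bp between and 201 bp over the list, and median pileups of 21, 15 and 15 fragments.

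**Figure D4:**
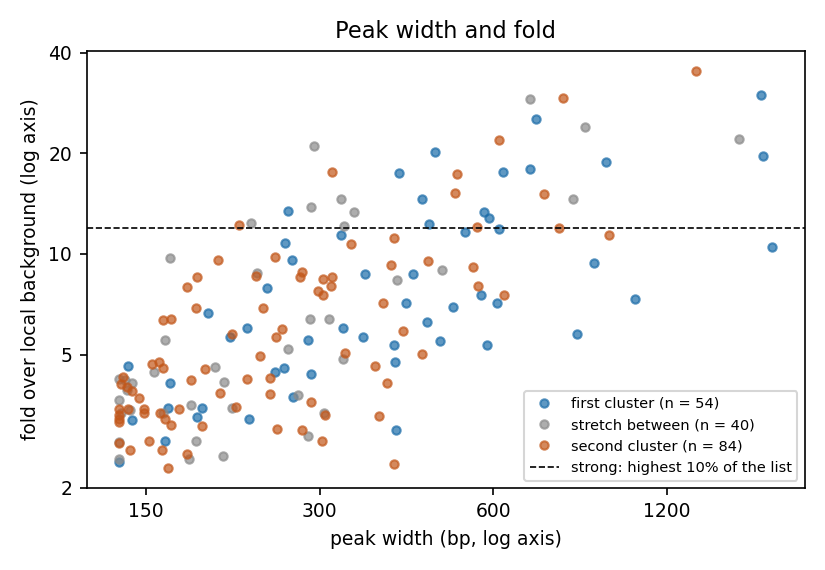
Fold over local background (vertical, log axis) against peak width in bp (horizontal, log axis) for the peaks of the 3 windows, with the line for strong peaks dashed. Wider peaks have higher folds in all 3 windows, and the widest peak, 1823 bp in the first cluster, stays below the line at a fold of 10.5.

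The local background was similar in the windows compared. Its median was 3 fragments in the first cluster (interquartile range 2.43 to 4), also 3 in the second (2.29 to 3.03) and 2.63 in the stretch between (2.16 to 3.73), against 3.11 over the list. No cluster peak stood over more than 7 fragments. Spearman's rho of fold with background was -0.0690 across the 138 cluster peaks, -0.16 across the 40 between and -0.208 over the list. The background is itself part of the fold, and no difference between these values was tested. Copy number of this region in T47D was not analysed here.

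Few cluster peaks were weakly supported. The authors' q was 0.05 or more for 1 of 54 peaks in the first cluster, 1.85% (0.0469% to 9.89%), and for 4 of 84 in the second, 4.76% (1.31% to 11.7%), against 12.5% over the list. In the stretch between it was 4 of 40, 10.0% (2.79% to 23.7%). The lowest fold in the first cluster was 2.38 (1.33 to 4.01), at chr6:26055357-26055491 with 12 fragments and a q of 0.228. In the second it was 2.30 (1.19 to 4.14), at chr6:27841210-27841373 with 9 fragments and a q of 0.283. Peaks of this depth could not be ranked against each other.

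Each cluster held a larger share of its band's peaks than of its band's length. Unstained band 6p22.2 held 104 peaks, and the first cluster, 17.2% of its length, held 51.9% of them and 52.0% of its 25 strong peaks. Band 6p22.1, of the middle staining class gpos50, held 214 peaks, and the second cluster, 25% of its length, held 39.3% of them. The second cluster held 31.3% of that band's 32 strong peaks, only a little above its share of the length.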

How the data were processed

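The labels describe ELF5 ChIP-seq of sonicated T47D nuclei, with 3 ChIP replicates and 1 input on an Illumina HiSeq. The antibody was taken from each sample's own field, because the extraction text lists only antibodies to KLF5 and CEBPB in other lines. The authors deposited 1 peak list, on hg19 (per the file headers, and per the submitters' notes on processing too), with IDR in the track name and 1-3 in the track description. Whether this stands for all 3 replicates or only the outer pair is open, and no column holds an IDR value. For aligner, peak caller, threshold, use of the input and pooling, each is not given in the sources used. The deposited signal value of a peak was read as a fold, the ratio of ChIP fragments to local background with the scaling and pseudocount given below. The deposited −log10 p and −log10 q were used as given, and the authors' score was not used.

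Pileup and background were recovered from fold and p from a Poisson tail, with a pseudocount of 1 and pileups scaled by 0.910. The deposited −log10 p of each of the 115384 peaks was met within 0.001. A second pair of pileup and background met it for 95 peaks, 0 of them in the 3 windows. Total reads per sample are unknown here. A fold's 95% interval is the exact Poisson interval of its pileup at a fixed background, intervals of a share are Clopper-Pearson, and all cover counting error only.

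The members, lists and windows were chosen with earlier results of these data known. Named peaks are the 8 of highest fold in each cluster and 5 in the stretch between, with the widest, the closest pair and those at the edges. The octamer, TATA and CCAAT counts and the same-length windows were added after the data were seen. Histone genes and promoter sequences are from RefSeq, GRCh38.p14. Band limits are those bundled with circlize 0.4.16. Software was matplotlib 3.10.9, pandas 2.3.3, scipy 1.17.1 and numpy 2.4.6 under Python 3.11.15.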

Additional observations from a re-analysis of the deposited data

How the results depend on the processing

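Of 38 alternative values, 30 stayed within 1.5 times a count or within the 95% counting interval of a ratio, median or fold, 8 moved and 0 reversed. The density ratio to the stretch between ran from 1.93 to 2.40 for both clusters together (2.23 as reported), from 2.91 to 3.97 for the first and from 1.65 to 1.96 for the second. These are the alternatives of q under 0.05, the highest 50% of folds, any overlap, joining summits within 400 bp, and windows narrowed or widened by 50 kb with the stretch taken as what lies between. In the highest 50% of folds the median cluster fold was 7.54, by construction, against 5.83. Strong peaks in the clusters numbered 8 when the highest 5% of folds were called strong and 62 with the highest 20%, against 23. The values for each cluster alone, and those without H2AC1 and H2BC1, were added after seeing the data, as was leaving out the pseudocount. Without it the highest folds were 41.1 in the first cluster, 39.4 between and 46.9 in the second. Histone promoter windows with an ETS motif numbered 24 for GGAAG and 11 for AGGAAG, against 1 for CCGGAAGT. Peaks at gene starts were not run, since no hg19 annotation was used, and replicates could not be left out. No paired analysis was possible because single replicates have no values in the list. The ranking of single peaks is limited by their low pileups.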

Other observations

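The stretch between the clusters held its peaks mostly in the part near the first cluster. From the strong pair at chr6:26659485-26660218 to the next peak, chr6:26924580-26924744, no summit was listed for 264589 bp, the longest empty distance of the 3 windows, while the longest in the first cluster was 30114 bp and in the second 73597 bp. The peak that ends this gap had a fold of 9.74 over a background of 1.81 fragments, the lowest in the list. That lowest background was shared by 9866 of the 115384 peaks of the list, 2 of them in this stretch. Whether reads can be placed uniquely in the empty part was not tested.

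Of the 138 cluster peaks 35 share both fold and p exactly with another cluster peak. Such ties were not counted in the stretch between or over the list, so the count is not given as a trait of the clusters.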
